A study of Mus musculus with 3 samples.

Results

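The nuclear genes for the subunits of the oxidative phosphorylation machinery were followed in chromatin accessibility data from mouse heart. They were chosen by symbol: all protein-coding genes of the mouse annotation on chromosomes 1 to 19 and X whose symbol starts with Nduf, Sdha, Sdhb, Sdhc, Sdhd, Uqcr, Cox4, Cox5, Cox6, Cox7, Cox8 or Atp5. The rule found 98 entries among 21670 protein-coding genes, and 97 were analysed. The entry left out is another annotation entry named Atp5o that spans 242.6 kb over other genes. By symbol, 38 of the 97 genes belong to complex I, 8 are complex I assembly factors, and 8, 8, 18 and 17 belong to complexes II, III, IV and V. The symbol rule takes in 12 assembly factors in all (the 8 Ndufaf and 4 Sdhaf genes), which help to build a complex without being part of it. Hearts of wild-type mice (labelled WT, with no other allele named) were snap-frozen, and their nuclei went through a 10x Genomics multiome assay, in which the transposase Tn5 cuts open chromatin and each nucleus receives a barcode. There was 1 library per group: vehicle, sunitinib, and sunitinib plus Yoda1, all titled 3 months. Sunitinib is an anticancer drug that blocks receptor tyrosine kinases, and Yoda1 is an activator of the mechanosensitive channel Piezo1. The labels used here do not say whether 3 months is an age or a time on treatment, nor how many hearts went into a library. The RNA of the same nuclei was not analysed here, so every value below is a measure of open chromatin and not of transcript. With 1 library per group no test between groups could be made, and the intervals given cover counting error only.

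Oxidative phosphorylation takes electrons from NADH (at complex I) and succinate (at complex II) through complex III and cytochrome c to oxygen (at complex IV). The protons pumped on the way drive complex V, the ATP synthase. Heart muscle draws most of its ATP from this route, and its mitochondria fill a large share of the cardiomyocyte. The subunits are encoded partly in the mitochondrial genome, which is not analysed here, and mostly in the nucleus. The nuclear genes are transcribed in nearly every cell, under factors that include NRF1, GABP (an ETS factor), YY1, the estrogen-related receptors and their coactivators of the PGC-1 family. A few complex IV subunits exist as a heart and skeletal muscle form beside a ubiquitous form: Cox6a2 beside Cox6a1, Cox7a1 beside Cox7a2, and Cox8b beside Cox8a.

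The promoters of some of the genes on which the results turn are given in letters, muscle-type forms beside ubiquitous ones. RefSeq promoter windows of the build GRCm38.p6 (250 bases before to 50 after a start) were matched by symbol for 78 of the 97 genes, in 83 windows. The muscle-type Cox6a2, and Cox4i2 and Ndufa4l2, were among the genes without a window, so they enter no promoter or motif value here. Below are stretches of the 250 bases before the start that no annotated exon covers, on the gene's own strand. Cox8b (chr7:140900447-140900696, minus strand) and Cox7a1 (chr7:30183921-30184143, plus strand) are muscle-type forms, and Cox8a (chr19:7217617-7217866, minus strand), Cox7a2 (chr9:79759879-79760103, minus strand) and Cox6a1 (chr5:115348982-115349129, minus strand) are the ubiquitous partners. Atp5g1 (chr11:96075671-96075881, minus strand) had the largest number of fragments among the 97 genes in cardiomyocyte-like nuclei of the sunitinib library, and Uqcrh (chr4:116075072-116075268, minus strand) was the most accessible gene per kb in both deep libraries. Capitals mark matches to the searched motifs.
Cox8b: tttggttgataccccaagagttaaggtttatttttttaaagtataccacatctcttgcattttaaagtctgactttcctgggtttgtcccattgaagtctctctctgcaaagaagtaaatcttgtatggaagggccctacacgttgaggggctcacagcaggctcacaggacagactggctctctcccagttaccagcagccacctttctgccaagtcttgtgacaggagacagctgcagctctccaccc
Cox8a: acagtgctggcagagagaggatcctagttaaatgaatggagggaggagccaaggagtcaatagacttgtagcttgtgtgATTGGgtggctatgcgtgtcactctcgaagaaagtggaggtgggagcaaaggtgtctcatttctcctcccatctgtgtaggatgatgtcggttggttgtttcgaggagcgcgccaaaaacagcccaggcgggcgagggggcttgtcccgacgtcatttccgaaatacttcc
Cox7a1: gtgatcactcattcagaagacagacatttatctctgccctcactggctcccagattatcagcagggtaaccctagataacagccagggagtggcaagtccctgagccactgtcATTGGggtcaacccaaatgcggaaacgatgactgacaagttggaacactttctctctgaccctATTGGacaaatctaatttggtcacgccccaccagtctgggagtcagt
Cox7a2: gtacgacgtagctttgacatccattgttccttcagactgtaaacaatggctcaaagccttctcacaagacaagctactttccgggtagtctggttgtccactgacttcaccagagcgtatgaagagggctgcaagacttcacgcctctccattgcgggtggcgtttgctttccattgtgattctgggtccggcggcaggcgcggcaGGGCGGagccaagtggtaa
Cox6a1: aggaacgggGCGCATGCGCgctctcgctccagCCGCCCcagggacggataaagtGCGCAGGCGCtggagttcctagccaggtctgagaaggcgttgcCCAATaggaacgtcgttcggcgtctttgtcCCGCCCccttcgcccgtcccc
Atp5g1: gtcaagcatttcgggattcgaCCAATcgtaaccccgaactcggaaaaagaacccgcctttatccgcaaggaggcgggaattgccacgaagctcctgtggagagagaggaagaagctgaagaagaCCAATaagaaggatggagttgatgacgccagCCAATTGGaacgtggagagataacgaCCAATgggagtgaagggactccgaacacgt
Uqcrh: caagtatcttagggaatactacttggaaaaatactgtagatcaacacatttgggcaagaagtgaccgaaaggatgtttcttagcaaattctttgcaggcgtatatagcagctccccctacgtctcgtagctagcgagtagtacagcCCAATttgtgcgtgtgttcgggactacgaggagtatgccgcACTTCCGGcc

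The motifs were searched on both strands: NRF1 (GCGCATGCGC, with any letter in place of its only T), ETS (CCGGAAGT), ERR (TNAAGGTCA), YY1 (AAGATGGCG), SP/KLF (GGGCGG), the CCAAT box (CCAAT), the E-box (CACGTG), the TATA box (TATAAA) and MEF2, given here by its name alone. Matches may overlap each other, as a pair of CCAAT boxes does in Atp5g1. An NRF1 match was present in 26.5% of the 83 windows of the oxidative phosphorylation genes, against 6.62% of 20054 windows of protein-coding genes and 4.60% of all 32851 windows of the table. A YY1 match was present in 9.64% of their windows, against 1.91% of protein-coding windows and 1.40% of all windows. The ETS match was in 6.02%, against 5.38% and 3.89%, and the ERR match in 3.61%, against 1.04% and 1.28%. The SP/KLF match (45.8% against 47.9% of protein-coding windows), the CCAAT box (42.2% against 37.9%), the E-box (7.23% against 8.06%) and the TATA box (10.8% against 12.1%) were about as frequent as in protein-coding windows in general. No window of these genes held a MEF2 match, where 0.484% of protein-coding windows and 0.557% of all windows did. Base composition differed as well. The median ratio of observed to expected CpG was 0.828 in the windows of these genes, 0.590 in protein-coding windows and 0.384 in all windows. The median GC content was 58.3%, 57% and 52.7% in the same order. The part of base composition in the motif shares was not tested. Cox8b had the lowest CpG ratio of the 83 windows (0.115) and no searched motif in the stretch printed above, while its whole window holds a TATA box match outside that stretch. Cox7a1 had 0.333, while the ubiquitous Cox8a, Cox7a2 and Cox6a1 had 0.842, 0.833 and 1.08. Cox6a1 holds NRF1 matches that start 162 and 117 bases before its start. These matches describe letters and do not show that a factor binds.

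The vehicle, sunitinib and sunitinib plus Yoda1 libraries held 18704581, 23653823 and 583792 unique fragments. Nuclei called from barcodes with at least 1000 fragments numbered 2689, 3861 and 12, so cell classes could be compared between vehicle and sunitinib only. Fragments within 1 kb of the start sites of protein-coding genes made up 19.6%, 22.9% and 19.4% of the libraries. Clusters were named from markers that were at least 2-fold more accessible in their cluster. These were 10 of 10 cardiomyocyte markers, 9 of 10 vascular endothelial, 10 of 10 fibroblast and 10 of 10 T lymphocyte markers. For the other named classes they were 8 of 10 mural, 9 of 10 myeloid and 7 of 8 B lymphocyte markers. In the mural-like cluster 3 of 10 fibroblast markers passed as well, and in the myeloid-like cluster 3 of 8 B lymphocyte markers. Names end in "-like" because chromatin was the only evidence. Cardiomyocyte-like nuclei were few: 224 (8.33%) in the vehicle and 298 (7.72%) in the sunitinib library. T lymphocyte-like nuclei went from 270 (10.0%) to 1435 (37.2%). The 10 genes with the highest fold in their cluster included Cd3e, Cd8a, Cd8b1 and the antigen receptor recombination gene Rag1. Whether these nuclei were mature T cells or thymocytes was not tested. The called nuclei of the vehicle and sunitinib libraries shared 22 barcodes.

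The start sites of the oxidative phosphorylation genes were more open than those of most genes. The start-site window of a gene holds all bases within 1 kb of a start of one of its protein-coding transcripts. Their median level there was 6.06 fragments per kb of start-site window and per 1000000 fragments of the library (FPM per kb) in the vehicle library and 7.42 in the sunitinib library, against 2.34 and 2.62 for all protein-coding genes. In the vehicle library 89 of the 97 genes lay above the median of all genes, 56 above its upper quartile (5.70) and 19 above its 90th percentile (8.84). In the sunitinib library the counts were 90, 58 and 19. The order of the genes was much the same in both libraries: the median shift in rank was 4 places of 97, and no gene moved by more than 20. Their promoters stand close to other genes: 36 of the 97 (37.1%) had the start site of another protein-coding gene within the window, against 12.9% of all genes. Fragments there cannot be given to either gene, and these genes are named with their neighbour. The genes were also short, with a median length of 7.46 kb against 17.4 kb for all genes.

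Around the start sites the cuts formed a narrow peak. In the vehicle library the cuts rose to 27.4 per kb per 1000000 cuts in the 25 bp before the start, which was 14.0 times the level beyond 750 bp, against 8.97 times for all protein-coding genes. In the sunitinib library the peak reached 34.4, or 14.7 times the outer level, against 9.26 times. The full width of the peak at the middle of its height was 225 bp in both libraries, against 275 bp for all genes. Such a peak was not particular to these genes. Genes for mitochondrial ribosomal proteins had 15.7 and 16.0 times the outer level in the vehicle and sunitinib libraries, and widths of 200 and 225 bp. A side peak followed from 200 to 250 bp after the start, at 10.4 to 10.7 in the vehicle and 13.1 to 13.3 in the sunitinib library, beyond a dip to 5.75 and 6.38 at 150 to 175 bp. The share of fragments too short to span a nucleosome within the windows was 53.6% for these genes and 53.5% for all genes in the vehicle library, and 51.9% and 51.4% in the sunitinib library.

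**Figure D1:**
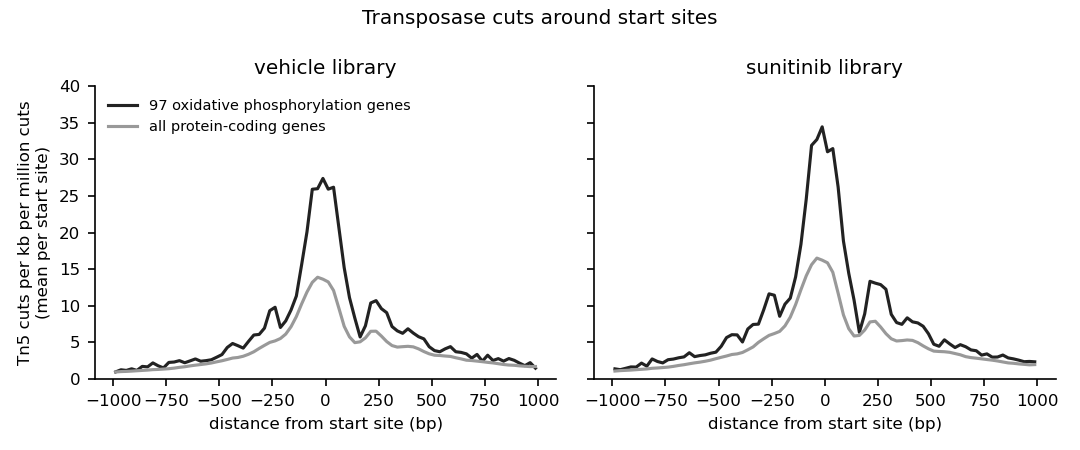
Tn5 cuts (both ends of each fragment) in 25 bp bins against the distance from the 5′ end of the gene, as the mean per start site per kb and per 1000000 cuts, for the 97 oxidative phosphorylation genes (black) and all protein-coding genes (grey). The black line peaks at 27.4 in the vehicle and 34.4 in the sunitinib library, above the peak of all genes (13.9 and 16.5), with side peaks on both flanks.

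The complexes differed in level. In the vehicle library the median, in FPM per kb, was 7.35 for complex V, 6.98 for complex III, 6.88 for complex II, 6.11 for complex I, 5.64 for the complex I assembly factors and 3.77 for complex IV. In the sunitinib library the medians were 8.85, 9.23, 8.17, 7.63, 6.78 and 4.73. Complex IV, which takes in the tissue-restricted isoforms, was lowest in both. The 3 most accessible genes of the vehicle library were Uqcrh, the hinge subunit of complex III, with its neighbour Lrrc41 (15.4, counting interval 14.2 to 16.7), the complex I subunit Ndufa11 with Vmac (14.3, 13.1 to 15.5) and the complex I subunit Ndufa13 with Tssk6 and Yjefn3 (13.2, 12.1 to 14.5). In the sunitinib library they were at 19.1, 16.9 and 17.6 and were again the top 3. Each of them shares its window with a neighbour.

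The genes at the bottom were isoform genes or an assembly factor. The 3 least accessible in the vehicle library were Cox7b2 (0.161, 6 fragments), Cox8c (0.401, 15 fragments), both known as testis forms of complex IV subunits, and the complex II assembly factor Sdhaf1, which tied with Cox6a2 (both 1.12, 42 fragments). In the sunitinib library they were at 0.148, 0.254, 1.42 and 1.27. Next above in the vehicle library came Cox8b (1.28), Cox4i2 (1.45), Cox7b (1.87) and Cox6c (2.22). The ubiquitous partners of the muscle-type forms were higher per kb in both libraries: Cox8a at 8.96 and 9.41 in the vehicle and sunitinib libraries, Cox7a2 at 6.82 and 9.90, and Cox6a1 at 5.81 and 7.24. The muscle-type Cox7a1 was between, at 3.68 and 4.27.

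**Figure D2:**
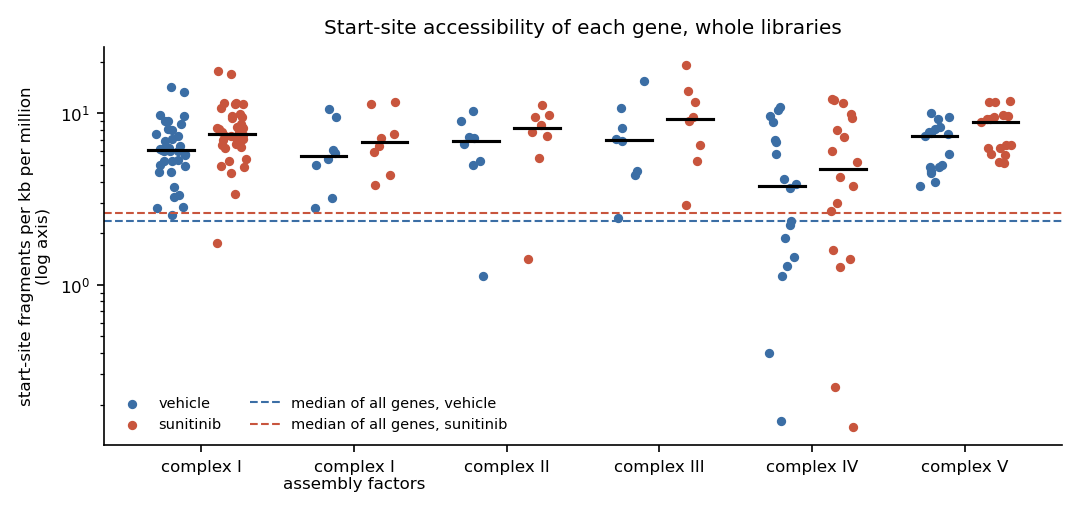
Start-site FPM per kb (log axis) for each of the 97 genes by complex, in the vehicle (blue) and sunitinib (red) libraries, with the median of each complex as a black bar and the median of all protein-coding genes as dashed lines (2.34 and 2.62). Complex IV spreads furthest down, to Cox7b2 at 0.161 and 0.148, while the other complexes lie mostly above the dashed lines.

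Across cell classes the summed start sites of the 97 genes were lowest, among the 7 named classes, in cardiomyocyte-like nuclei, with counting intervals that overlap those of fibroblast-like nuclei, and highest in lymphocyte-like nuclei. In cardiomyocyte-like nuclei they took 1999 fragments per 1000000 fragments of the class (FPM; 1396 fragments) under vehicle and 1821 (1579 fragments) under sunitinib. Vascular endothelial-like nuclei had 2205 and 2347, fibroblast-like 2031 and 1963, mural-like 2308 and 2080, myeloid-like 2343 and 2528, T lymphocyte-like 2705 and 2735, and B lymphocyte-like 2671 and 2796. T lymphocyte-like nuclei were thus above cardiomyocyte-like nuclei in both libraries, with counting intervals apart (2577 to 2837 against 1896 to 2107 under vehicle). The classes also differed in how many of all their fragments fell at start sites, from 21.8% in cardiomyocyte-like nuclei under sunitinib to 33.9% in B lymphocyte-like nuclei under vehicle. As a share of those start-site fragments the 97 genes took 0.843% and 0.835% in cardiomyocyte-like nuclei, 0.781% and 0.777% in vascular endothelial-like, 0.785% and 0.750% in fibroblast-like, 0.806% and 0.731% in mural-like, 0.767% and 0.797% in myeloid-like, 0.900% and 0.913% in T lymphocyte-like and 0.789% and 0.827% in B lymphocyte-like nuclei. On that scale cardiomyocyte-like nuclei stood second to T lymphocyte-like nuclei in both libraries. Under vehicle the cardiomyocyte-like interval (0.799% to 0.888%) overlapped those of all 6 other classes. Under sunitinib (0.795% to 0.878%) it lay below that of T lymphocyte-like nuclei (0.896% to 0.931%) and above those of the vascular endothelial-like (0.760% to 0.794%), fibroblast-like (0.720% to 0.781%) and mural-like nuclei (0.684% to 0.782%).

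**Figure D3:**
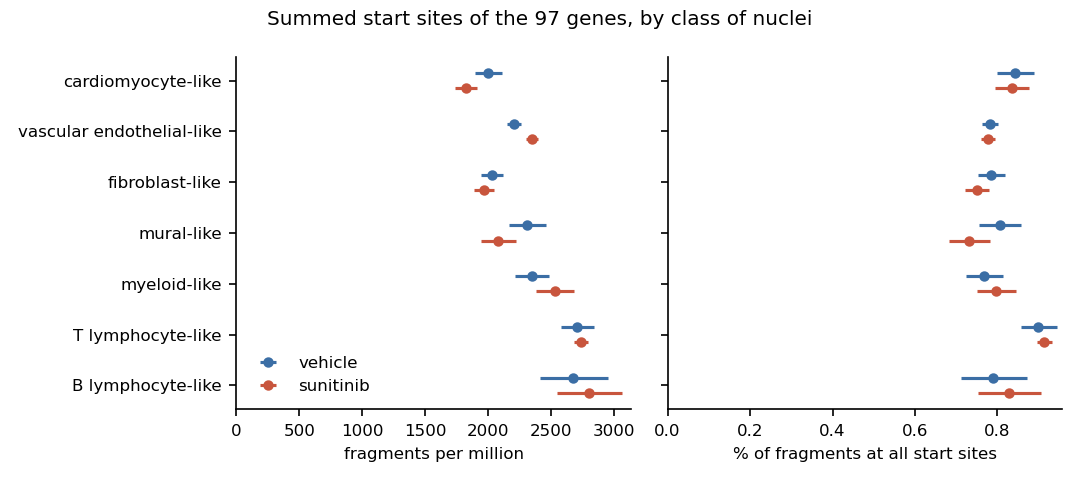
Summed start-site fragments of the 97 genes in 7 classes of nuclei under vehicle (blue) and sunitinib (red), in FPM (left) and as a percentage of the fragments at all start sites (right), with 95% counting intervals. The left panel runs from 1821 in cardiomyocyte-like nuclei under sunitinib to 2796 in B lymphocyte-like nuclei under sunitinib, and the right panel from 0.731% to 0.913%.

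Gene by gene, the shares that were higher in cardiomyocyte-like nuclei were near those of all genes. Of the 77 genes with enough fragments under vehicle (at least 50 over both sets of nuclei and 10 expected in each), 4 were at least 1.5-fold higher in cardiomyocyte-like than in the other nuclei and 15 at least 1.5-fold lower, where 3.51% and 26.9% of all measured genes were. Under sunitinib 3 of 85 were higher and 30 lower, where 2.26% and 40.8% of all genes were. Their median log2 difference was -0.05 under vehicle and -0.44 under sunitinib, against -0.25 and -0.46 over all genes. Atp5g1, which encodes the membrane ring subunit c of complex V, had 44.4 FPM in cardiomyocyte-like and 31.2 in other nuclei under vehicle (log2 difference 0.53, interval -0.08 to 1.06), and 57.7 and 33.2 under sunitinib (0.81, 0.34 to 1.22). Its sister genes Atp5g2 and Atp5g3, which make the same mature subunit, were not higher there by more than counting error in either library: the log2 differences were 0.18 (-0.47 to 0.73) and -0.29 (-0.91 to 0.24) for Atp5g2, and -0.67 (-1.82 to 0.18) and -0.40 (-1.27 to 0.28) for Atp5g3. In T lymphocyte-like nuclei, by contrast, 20 of 71 measured genes under vehicle and 34 of 91 under sunitinib were at least 1.5-fold higher than in the other nuclei and 0 were lower, where 22.3% and 21.7% of all genes were higher and 11.2% and 15% lower. The class of each nucleus was set with tiles over these genes left out, but neighbouring chromatin helped to set it.

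The muscle-type forms Cox6a2 and Cox8b were the clearest class markers among the 97 genes, on few fragments. Both were below the minimum for single genes in each library, so neither is in the counts of measured genes above. Cox6a2 (chr7:128205435-128206387, minus strand), a complex IV subunit of heart and skeletal muscle, had 13 start-site fragments in the 224 cardiomyocyte-like nuclei and 9 in all other vehicle nuclei, and 12 and 18 in the sunitinib library. In FPM this was 18.6 against 1.20 and 13.8 against 1.49, log2 differences of 3.93 (2.62 to 5.36) and 3.23 (2.03 to 4.35). It was seen with 0 fragments in vehicle nuclei of the mural-like, T lymphocyte-like and B lymphocyte-like classes. Cox8b (chr7:140898945-140900446, minus strand) had 10 against 9 fragments under vehicle and 18 against 26 under sunitinib. Its levels were 14.3 against 1.20 and 20.8 against 2.16 FPM, log2 differences of 3.57 (2.13 to 5.06) and 3.28 (2.31 to 4.19). Both genes are near the bottom of the whole-library levels above, and cardiomyocyte-like nuclei make up 8.33% and 7.72% of the called nuclei.

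The other muscle-type form gave a smaller difference. Cox7a1 (chr7:30184144-30186078, plus strand) had 12 fragments in cardiomyocyte-like and 73 in other nuclei under vehicle, and 15 and 119 under sunitinib. Its log2 difference was 0.87 (-0.19 to 1.71) and 0.85 (-0.07 to 1.59), so it was not above the other nuclei by more than counting error at its start site. Its highest class was myeloid-like under vehicle (27.1 FPM, 13 fragments) and mural-like under sunitinib (21.6, 9 fragments), and vascular endothelial-like nuclei held 34 and 43 of its fragments. Over the 3 muscle-type genes together the cardiomyocyte-like nuclei had 50.1 FPM under vehicle and 51.9 under sunitinib, log2 differences from the other nuclei of 2.06 (1.44 to 2.63) and 1.95 (1.43 to 2.43). The ubiquitous partners showed no such difference. Cox6a1 had 11.5 FPM in cardiomyocyte-like and 18.4 in other nuclei under vehicle, and 11.5 and 18.2 under sunitinib. Cox8a had 21.5 and 26.5, then 26.5 and 22.7, and Cox7a2 had 24.3 and 22.0, then 20.8 and 27.1, all with intervals of the difference that include 0. Within cardiomyocyte-like nuclei the windows of Cox6a2 and Cox8b, of equal length to those of Cox6a1 and Cox8a, thus held counts of the same order as those of the ubiquitous form (13 and 8 for Cox6a2 and Cox6a1 under vehicle, 10 and 15 for Cox8b and Cox8a).

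**Figure D4:**
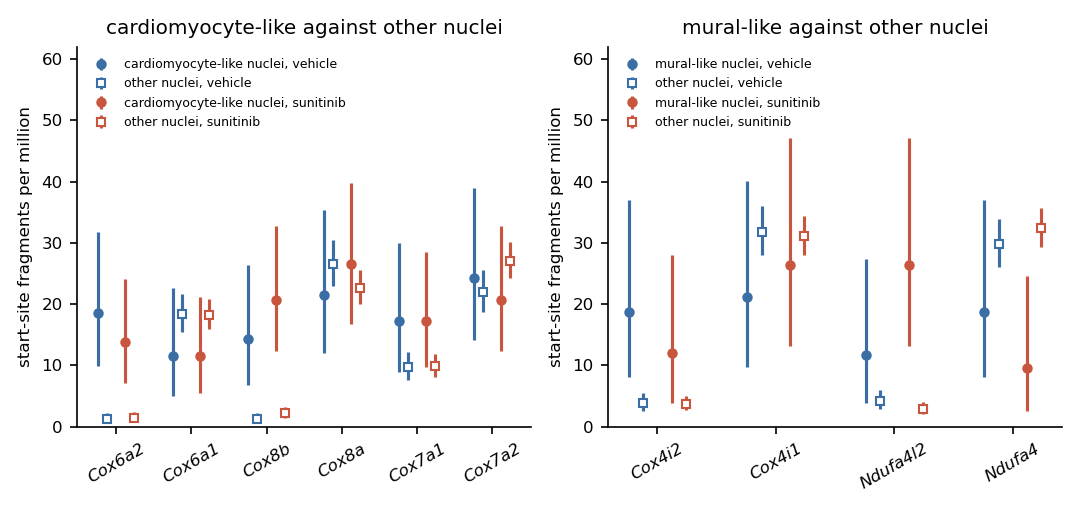
Start-site FPM (with exact Poisson 95% intervals) of isoform genes in cardiomyocyte-like (left) or mural-like (right) nuclei (filled circles) and in all other called nuclei of the same library (open squares), under vehicle (blue) and sunitinib (red). Cox6a2 and Cox8b stand at 13.8 to 20.8 in cardiomyocyte-like nuclei and at 1.20 to 2.16 elsewhere, while Cox4i2 and Ndufa4l2 stand at 11.8 to 26.4 in mural-like nuclei and at 2.88 to 4.24 elsewhere, with wide intervals.

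A pair of other isoform genes, Cox4i2 and Ndufa4l2, had higher values in mural-like nuclei (pericytes and smooth muscle). Both were below the minimum for single genes at the start sites in each library. At the start sites each was beyond counting error in 1 library, and over the gene body in both. Cox4i2, the complex IV subunit 4 form known for its response to low oxygen, had 8 fragments in mural-like and 30 in other nuclei under vehicle, and 5 and 47 under sunitinib. Its log2 difference was 2.35 (0.95 to 3.45) and 1.80 (-0.01 to 3.00), and over the gene body it was 1.74 (0.83 to 2.48) and 2.09 (1.25 to 2.77). Its widespread partner Cox4i1, with neighbours Emc8 and Gm27021, had 21.2 FPM in mural-like and 31.9 in other nuclei under vehicle and 26.4 and 31.1 under sunitinib. Ndufa4l2, induced by low oxygen in other settings, had 5 and 33 fragments under vehicle and 11 and 36 under sunitinib, log2 differences of 1.59 (-0.24 to 2.84) and 3.24 (2.07 to 4.20), and over the gene body 1.03 (0.15 to 1.74) and 1.63 (0.88 to 2.26). Its relative Ndufa4 (with Phf14) went the other way: 18.8 against 29.8 FPM under vehicle (-0.58, -1.89 to 0.34) and 9.58 against 32.4 under sunitinib (-1.59, -3.64 to -0.39). By symbol both are counted with complex I, although Ndufa4 protein is known as a complex IV subunit. The remaining isoform genes, Cox6b1, Cox6b2, Cox7a2l, Cox7b, Cox7b2 and Cox8c, did not differ the same way beyond counting error in both libraries, in either class.

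By the ratio of the highest class to the median class, the leading genes whose top class was the same in both libraries were Cox6a2 (13.3 under vehicle, 4.72 under sunitinib), Cox8b (6.24, 8.96), Sdhaf1 (4.82, 3.76), Cox4i2 (4.32, 3.48), Cox7b2 (3.31, 4.36) and Atp5mpl (2.26, 2.20). For Sdhaf1, Cox7b2 and Atp5mpl, a small complex V subunit, the top class was the B lymphocyte-like nuclei, where they had only 3 and 2, 0 and 0, and 6 and 5 fragments. For Cox7b2 the ratio therefore rests on the 0.5 added to each count, and these 3 values carry no class information at this depth.

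Between sunitinib and vehicle the start sites of the 97 genes in cardiomyocyte-like nuclei were slightly lower, by about the median shift of the measured genes. The log2 ratio of the sums was -0.13 (-0.24 to -0.03), and the median of the 1807 genes with enough fragments was -0.12. Scaled to the fragments at all start sites in the same nuclei it was -0.01 (-0.12 to 0.09). By complex the sums were -0.13 for complex I, 0.24 for its assembly factors, -0.23 for complex II, -0.34 for complex III, -0.26 for complex IV and -0.05 for complex V. Of these only the interval of complex III (-0.68 to -0.00) lay below 0, at 146 against 149 fragments. The 7 core subunits of complex I, which carry its flavin and iron-sulfur clusters, had 123 against 133 fragments and a log2 ratio of -0.42 (-0.79 to -0.06). The intervals of complex III and of these core subunits both include the median of all measured genes (-0.12). Within complex III single genes ran from Uqcrc1 (25 fragments under vehicle, 12 under sunitinib, -1.34) to Uqcrc2 (10 and 18, 0.51). Among the core subunits they ran from Ndufs7 (26 and 13, -1.29) to Ndufs8 (19 and 29, 0.29). All of these were below the minimum for single genes, and the sums without them were not computed. The 3 muscle-type isoforms were at 0.05 (-0.62 to 0.73), and their ubiquitous partners at 0.03 (-0.59 to 0.67).

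At this depth single genes could hardly be read in cardiomyocyte-like nuclei. Only 9 of the 97 genes reached the minimum, with medians of 13 and 15 fragments over all 97, and the 9 had passed as the most accessible. None of the 9 was at least 1.5-fold higher, where 3.93% of all measured genes were, and 2 were at least 1.5-fold lower, where 9.46% were. These were the complex I subunit Ndufb5 with Mrpl47 (36 fragments under vehicle, 28 under sunitinib, log2 -0.67, -1.44 to 0.08) and the complex IV subunit Cox5a (34 and 28, -0.59, -1.37 to 0.17). The complex III subunits Uqcrq (35 and 34) and Uqcrh with Lrrc41 (30 and 32) were at -0.35 and -0.22, and Ndufa13 with Tssk6 and Yjefn3 (27 and 31) at -0.12. The complex V genes were Atp5d with Cbarp (28 and 28, -0.31), Atp5g2 (27 and 28, -0.26), Atp5j with Gabpa (40 and 43, -0.21) and Atp5g1 (31 and 50, 0.37, -0.30 to 1.07). All 9 intervals include 0, and Atp5g1 was the only one of the 9 above 0. Over gene bodies 37 genes reached the minimum, of which 1 was at least 1.5-fold higher (Uqcrc2, a complex III core protein, 19 and 36 fragments, 0.59, -0.23 to 1.49) and 1 lower (Ndufs7, a core subunit of complex I, 41 and 24, -1.07, -1.88 to -0.32), where 4.04% and 5.79% of all genes were. Uqcrc2 and Ndufs7 were chosen after their values were seen.

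Among 22 regulators of these genes, the gene body of Ppargc1a, which encodes the coactivator PGC-1alpha, was the lowest in cardiomyocyte-like nuclei. It had 275 fragments under vehicle and 195 under sunitinib, a log2 ratio of -0.81 (-1.08 to -0.54), and was the only one of the 18 regulators with enough fragments that was past 1.5-fold, where 5.79% of all genes were at least 1.5-fold lower and 4.04% higher. At its start sites it had 34 and 28 fragments (-0.59, -1.37 to 0.17). Next lowest were Gabpb1, a GABP subunit (25 and 20, -0.63, -1.56 to 0.27, below the minimum), and the mitochondrial transcription regulator Mterf3 (26 and 25, -0.37, -1.22 to 0.48). Highest were Tfam, which packages and transcribes mitochondrial DNA (11 and 21, 0.59, -0.50 to 1.82, below the minimum), the PGC-1 family member Pprc1 (38 and 64, 0.43, -0.16 to 1.06) and Tfb1m (34 and 47, 0.15, -0.51 to 0.84). Summed over the 22 gene bodies the ratio was -0.17 (-0.27 to -0.08), beside -0.06 for the median of all genes. At the start sites 10 regulators had enough fragments, of which 4 were at least 1.5-fold lower and 0 higher, where 9.46% and 3.93% of all genes were. The 4 were Ppargc1a, Yy1 (31 and 23 fragments, -0.73, -1.59 to 0.08), Tfb1m (30 and 24, -0.63, -1.47 to 0.19) and Mef2c (33 and 27, -0.60, -1.39 to 0.18). The interval of each includes 0, and Yy1 and Mef2c were chosen after their values were seen. The 22 start sites summed to -0.30 (-0.48 to -0.12). The 41 other subunit and assembly genes summed to -0.05 (-0.21 to 0.11) at the start sites, with 0 of 6 measured genes past 1.5-fold in either direction. The 17 tricarboxylic acid cycle genes summed to -0.18 (-0.40 to 0.04), with 0 of 6 past it, and the 9 genes of energy export to -0.11 (-0.40 to 0.18), with 0 of 3 past it, all beside the all-gene median of -0.12.

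In the other classes the median of all genes lay within the counting interval of the sum, except in mural-like nuclei, where the sum was lower, and in B lymphocyte-like nuclei, where only 3 genes were measured. Vascular endothelial-like nuclei had a log2 ratio of 0.09 (0.04 to 0.14), beside 0.10 for the median of all genes. Fibroblast-like nuclei had -0.05 (-0.13 to 0.04) beside 0.01, myeloid-like 0.11 (-0.01 to 0.23) beside 0.05, T lymphocyte-like 0.02 (-0.06 to 0.09) beside -0.02, and B lymphocyte-like 0.07 (-0.13 to 0.27). Mural-like nuclei had -0.15 (-0.28 to -0.02) beside 0.03, a median over the 373 genes with enough fragments there. In vascular endothelial-like nuclei, the deepest class, 88 genes were measured, and 3 of them were at least 1.5-fold higher and 0 lower, where 2.86% and 0.747% of all genes were. These were Ndufs4 (17 fragments under vehicle, 38 under sunitinib, 0.85, 0.01 to 1.79), Cox6c (20 and 41, 0.73, -0.06 to 1.60) and Ndufb7 (43 and 86, 0.70, 0.17 to 1.28). In T lymphocyte-like nuclei 5 of 83 were higher and 6 lower, where 6.45% and 4.74% of all genes were, and in fibroblast-like nuclei 0 of 38 were higher and 3 lower, where 6.58% and 4.31% were. The mural-like, myeloid-like and B lymphocyte-like nuclei left 1, 2 and 0 genes with enough fragments, and none of these 3 was past 1.5-fold. Of all measured genes 6.43% were higher and 8.04% lower in mural-like nuclei and 7.64% and 5.47% in myeloid-like nuclei.

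**Figure D5:**
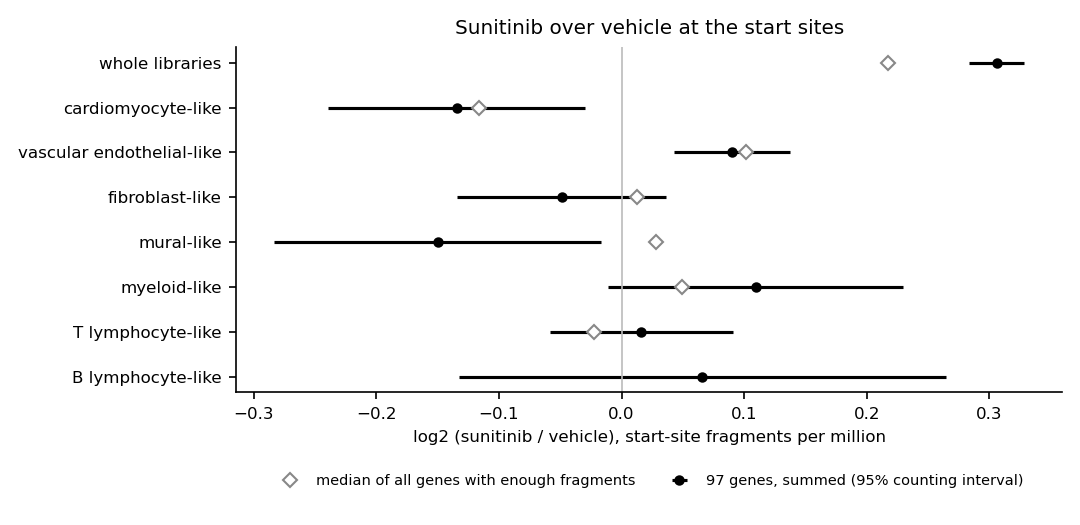
Log2 ratio of sunitinib to vehicle of the summed start sites of the 97 genes (black circles, 95% counting intervals) in the whole libraries and in each class, with the median of all measured genes (open diamonds, not drawn for B lymphocyte-like nuclei, where 3 genes were measured). The circles lie between -0.15 and 0.11 within the classes and at 0.31 in the whole libraries, and the diamonds lie within the intervals except in the whole libraries and in mural-like nuclei.

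Over the whole libraries, all barcodes included, the 97 genes were higher under sunitinib, with 1728 against 1397 FPM (log2 0.31, 0.28 to 0.33). Of 95 measured genes 2 were at least 1.5-fold higher and 0 lower, where 5.94% and 3.26% of all genes were. These were Ndufs4, a complex I subunit (118 and 276 fragments, 0.88, 0.57 to 1.21), and Cox6c, a complex IV subunit (108 and 233, 0.77, 0.44 to 1.11). At the other end were Ndufa4l2 (95 and 83, -0.53, -0.98 to -0.09) and Cox4i2 (79 and 98, -0.03), the genes that were high in mural-like nuclei. The median of all genes was itself at 0.22, and scaled to the fragments at all start sites the sum was at 0.08 (0.06 to 0.11). The share of T or B lymphocyte-like nuclei rose with it, from 12.2% (11.0% to 13.5%) to 38.6% (37.1% to 40.1%) of called nuclei. The T lymphocyte-like share went from 10.0% to 37.2%, and the B lymphocyte-like share from 2.16% to 1.42%. In called nuclei outside the lymphoid classes the log2 ratio was -0.02 (-0.05 to 0.01). Called nuclei held 44.0% of the fragments of the vehicle library and 54.7% of those of the sunitinib library. In these bulk values that difference, a change in the mix of cells and a change within cells cannot be told apart.

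The sunitinib plus Yoda1 library was too shallow for single genes, and its called nuclei held 4.07% of its fragments. Only its fragments seen in 100 or more read pairs were used (258020 fragments, 44.3% of the library). The vehicle and sunitinib libraries held 0 such fragments and were used unfiltered, so the ratios below set a filtered library against unfiltered ones. The fragments used held 378 at the start sites of the 97 genes, with a median of 3 per gene, and 12 genes had 0. The sum was 1465 FPM against 1728 in the sunitinib library, a log2 ratio of -0.24 (-0.39 to -0.09) beside a median of -0.08 over all measured genes, and against vehicle, which is the control of the sunitinib comparison as well, it was 0.07 (-0.08 to 0.22) beside 0.18. Scaled to fragments at all start sites the ratio to sunitinib was -0.02 (-0.17 to 0.12). Only 2 genes were measured against sunitinib: Atp5j with Gabpa (13 fragments, 0.38, -0.58 to 1.11) and Uqcrh with Lrrc41 (6 fragments, -0.63, -2.20 to 0.38), of which 1 was past 1.5-fold lower, where 19.5% of all genes were, and 0 higher, where 7.52% were. The version of the alignment software also differed with this group.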

How the data were processed

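Accessibility was measured in 3 libraries of nuclei, and 1 fragment file per library was used. The fragments come from cellranger-arc (2.0.0 for vehicle and sunitinib, 2.0.2 for sunitinib plus Yoda1) and the build mm10, per the file headers, and the submitters' processing notes also name Signac. The deposited value, as the authors left it, is the count of read pairs behind each fragment, not normalized. Samples were grouped by title.

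Nuclei had at least 1000 fragments, a start-site enrichment of at least 4 and a nucleosome ratio under 4. No doublet caller was run. Clusters came from latent semantic indexing of 60000 tiles of 5000 bp without tiles over these genes (30 components, 20 neighbours, Leiden resolution 0.8). A class name needed 3 markers at 2-fold and 2 times as many as any other class; this lead was chosen after seeing the data, and 3 clusters stayed unnamed (478 and 501 nuclei). Start-site windows (1 kb to each side of GENCODE vM21 starts) and gene bodies plus 2 kb were counted per 1000000 fragments, with 0.5 added in ratios and conditional exact 95% intervals, checked on simulated data. A gene needed 50 or more fragments over both sides of a ratio and 10 expected on each to be read singly. Isoform genes named by rule are given below this minimum as well. Depth was 18704581, 23653823 and 583792 fragments. The 12 nuclei of the sunitinib plus Yoda1 library made no class.

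Genes were named by rule: all isoform genes, the 6 highest and 6 lowest measured in cardiomyocyte-like nuclei, the 3 most and 3 least accessible, the 6 with the strongest class preference, and the 3 highest and 3 lowest regulators. The members and lists were chosen with earlier results of these data known. Alternatives covered scaling, windows, fragment length, duplicates, thresholds and clustering. Python 3.11.15, numpy 2.4.6, scipy 1.17.1, scikit-learn 1.9.0 and leidenalg 0.10.2 were used.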

Additional observations from a re-analysis of the deposited data

Results flagged for a closer look

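Summed over the 97 genes, the ratio of sunitinib to vehicle at the start sites had opposite signs in different classes of nuclei, with counting intervals on opposite sides of 0. It was -0.134 (log2) in cardiomyocyte-like and 0.0901 in vascular endothelial-like nuclei, and 0.0901 in vascular endothelial-like against -0.150 in mural-like nuclei. The difference between classes was not tested, since each group is 1 library. The medians of all measured genes were -0.12, 0.10 and 0.03 in these classes. Scaled to fragments at all start sites, the cardiomyocyte-like and vascular endothelial-like values were -0.0132 and -0.00821. The share of mural-like start-site fragments at the 97 genes was 0.806% (0.756% to 0.858%) under vehicle and 0.731% (0.684% to 0.782%) under sunitinib, so the lower mural-like value remained on that scale, with intervals that overlap.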

How the results depend on the processing

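No paired analysis was possible because each group is 1 library. Scaled to fragments at all start sites, the log2 sum was -0.0132 in cardiomyocyte-like nuclei, reversed to -0.00821 in vascular endothelial-like nuclei, was 0.0834 in whole libraries and -0.0215 for sunitinib plus Yoda1 over sunitinib. With nucleosome-free fragments only it was 0.0344 in vascular endothelial-like nuclei, 0.37 in whole libraries and -0.42 for sunitinib plus Yoda1. Over gene bodies it was 0.22 in whole libraries and -0.0742 for sunitinib plus Yoda1, and with all fragments of that library -0.41. In nuclei outside the lymphoid classes the whole-library ratio reversed to -0.0178. The count of 2 genes past 1.5-fold in cardiomyocyte-like nuclei became 0 when scaled to start-site fragments, with nucleosome-free fragments only, with 3000 fragments per nucleus, at 2-fold, or with at least 100 fragments per gene. It became 1 with 500 bp windows, without genes that share a window, at a start-site enrichment of 10, without the 5% largest nuclei, with member tiles kept, or with 1 added to each side. It became 35 (of 93 genes) with a minimum of 1 fragment in each library, where 34.7% of all genes were past it. The cause of these shifts was not tested. Some of these settings leave a smaller number of genes or nuclei. The other 10 alternatives moved the cardiomyocyte-like sum, and all 11 the fibroblast-like sum and the muscle-type sum of each library, by less than the counting interval. Depth limits single genes in cardiomyocyte-like nuclei and in the sunitinib plus Yoda1 library.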

Other observations

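The preference of each gene for a class was compared between the libraries, as a description over the genes measured in both, which share their windows and neighbours. The log2 difference of vascular endothelial-like nuclei from the other nuclei had a Pearson r of 0.52 between the vehicle and the sunitinib library over 88 genes, with the same sign in 66. For T lymphocyte-like nuclei r was 0.39 over 71 genes (57 with the same sign), for cardiomyocyte-like nuclei 0.13 over 77 genes (52) and for fibroblast-like nuclei -0.05 over 84 genes (44). The other nuclei differ between the libraries in their share of T lymphocyte-like nuclei (10.0% and 37.2% of all nuclei).

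The genes for mitochondrial ribosomal proteins, which translate the mitochondrially encoded subunits, were set beside the 97 genes. In T lymphocyte-like nuclei their 78 start sites summed to log2 0.46 (0.38 to 0.54) above the other nuclei under vehicle and 0.41 (0.37 to 0.45) under sunitinib, beside 0.40 (0.32 to 0.47) and 0.43 (0.39 to 0.46) for the 97 genes. In cardiomyocyte-like nuclei they were at -0.20 (-0.29 to -0.11) and -0.59 (-0.68 to -0.51), beside -0.08 (-0.16 to -0.00) and -0.31 (-0.39 to -0.24). The genes of energy export encode mitochondrial carriers of ATP and phosphate, Vdac channels and the muscle creatine kinases Ckm and Ckmt2. Their sums were at 0.44 (0.21 to 0.66) and 0.33 (0.12 to 0.53) in cardiomyocyte-like nuclei.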
